A study of Mus musculus with 6 samples.

Results

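The cytosolic ribosomal protein genes encode the proteins of the ribosome that translates nuclear-encoded mRNA. They were defined by gene symbol alone. The symbols were Rpl or Rps followed by a number and at most the letter a, x or l, together with Rplp0, Rplp1, Rplp2 and Rpsa. Pseudogenes and the Rps6k kinases were left out. The rule took 79 of the 23154 gene IDs in the count tables, 48 of the large subunit and 31 of the small subunit. Of these, 77 had enough reads to be tested, 46 large and 31 small, and Rpl3l and Rpl39l had too few. No expression value enters this rule, but the members were chosen with earlier results of these data known.

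RNA-seq was done on C2C12 cells, an established line of mouse myoblasts, the precursors of skeletal muscle fibres. The 3 HA-NUR77 libraries came from a pINDUCER20b stable line in which doxycycline induces NUR77, a nuclear receptor, with an HA tag. The 3 GFP libraries came from the matching line in which it induces green fluorescent protein. Every dish of both groups, controls included, received doxycycline at 1 µg/mL for 18 hours, starting 24 hours after seeding, and each library came from its own dish. Each construct is represented by a single stable line, so a property of a line and an effect of its construct cannot be told apart, and p-values measure the spread between dishes of these lines.

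The libraries held 13906096 to 22821446 counts. Transcripts of Nr4a1, the mouse gene for NUR77, were at 19.4 to 25.5 CPM (counts scaled to library size) in the HA-NUR77 libraries and 13.5 to 28.2 CPM in the GFP libraries, and did not pass the test (adjusted p = 0.698). The labels do not give the species of the induced NUR77 sequence, so this level does not check them. A gene called higher is thus higher in libraries that carry the HA-NUR77 label. Muscle markers were present in all 6 libraries, with Myod1, the myoblast determination factor, at 77.1 to 123 CPM and Myog, a differentiation factor, at 356 to 478 CPM. The macrophage marker list summed to under 10 CPM in each library, and Adgre1, its defining surface marker, was at 0 in 5 of 6. Of the 10 genes on that list, 3 had enough reads to be tested. Of these, 1 was higher in HA-NUR77 and 0 lower, against 12.4% and 13.2% of all genes. Across all 12509 genes tested, 1549 were higher and 1655 lower in HA-NUR77.

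Ribosomal proteins assemble with ribosomal RNA into a large subunit, which forms peptide bonds, and a small subunit, which reads the mRNA. Their mRNAs are short and abundant, and most begin with a C followed by a run of pyrimidines, the terminal oligopyrimidine or TOP motif, through which mTOR and the RNA-binding protein LARP1 control their translation. Muscle growth is accompanied by making more ribosomes, and these genes are transcribed together in most cells.

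The start-site sequences below show what these genes share and where they differ. RefSeq promoter windows on GRCm38.p6 were matched for 59 of the 79 genes. A run of at least 8 pyrimidines (C or T on the coding strand) within 10 bases of the annotated start was found in 28 of the 59, which is 47.5%, against 16.1% of all 27025 genes in the promoter table. An annotated start on a C followed by at least 4 further pyrimidines was rarer, at 22.0% against 3.01%. Each line gives 15 bases before and 15 bases from the annotated start, 5′ to 3′ on the coding strand, with the longest pyrimidine run near the start in capitals. The first 4 genes hold long runs, and the last 3 are the large-subunit genes with the largest rises.
Rpl18: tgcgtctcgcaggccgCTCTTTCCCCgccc
Rpl28: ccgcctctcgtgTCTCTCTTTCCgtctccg
Rps18: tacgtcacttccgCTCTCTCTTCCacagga
Rpl35: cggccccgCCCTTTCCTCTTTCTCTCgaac
Rpl24: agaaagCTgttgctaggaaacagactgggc
Rpl27: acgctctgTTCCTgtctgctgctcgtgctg
Rpl26: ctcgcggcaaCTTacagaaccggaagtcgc
These windows lie at chr7:45718056-45718085 on the plus strand (Rpl18), chr7:4792950-4792979 on the plus strand (Rpl28), chr17:33955651-33955680 on the minus strand (Rps18) and chr2:39005117-39005146 on the minus strand (Rpl35). Those of Rpl24, Rpl27 and Rpl26 lie at chr16:55966260-55966289, chr11:101442230-101442259 and chr11:68901551-68901580, all on the plus strand. Annotated starts can be off by several bases, so a short run in this window says only that these letters are not there.

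Transcripts of the ribosomal protein genes took a larger share of the counts in every HA-NUR77 library than in any GFP library. In order of replicate number, the share was 2.08%, 2.17% and 1.99% with HA-NUR77 and 1.74%, 1.80% and 1.60% with GFP, or 2.08% ± 0.089 against 1.72% ± 0.10 (mean ± SD, n = 3 libraries each). The groups did not overlap, and replicate 2 was highest and replicate 3 lowest in both. The large-subunit genes took 1.27% ± 0.050 of counts in HA-NUR77 and 1.07% ± 0.064 in GFP, and the small-subunit genes 0.812% ± 0.039 and 0.649% ± 0.038. Relative to each gene's mean in GFP, the median ribosomal protein gene stood at a log2 level of 0.28, 0.36 and 0.21 in the HA-NUR77 libraries and 0.02, 0.07 and −0.08 in the GFP libraries. In bulk libraries, more cells with a high level and more RNA per cell cannot be told apart. The values are relative to the other counts of a library, so a rise of these transcripts and a fall of others cannot be told apart either.

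**Figure D1:**
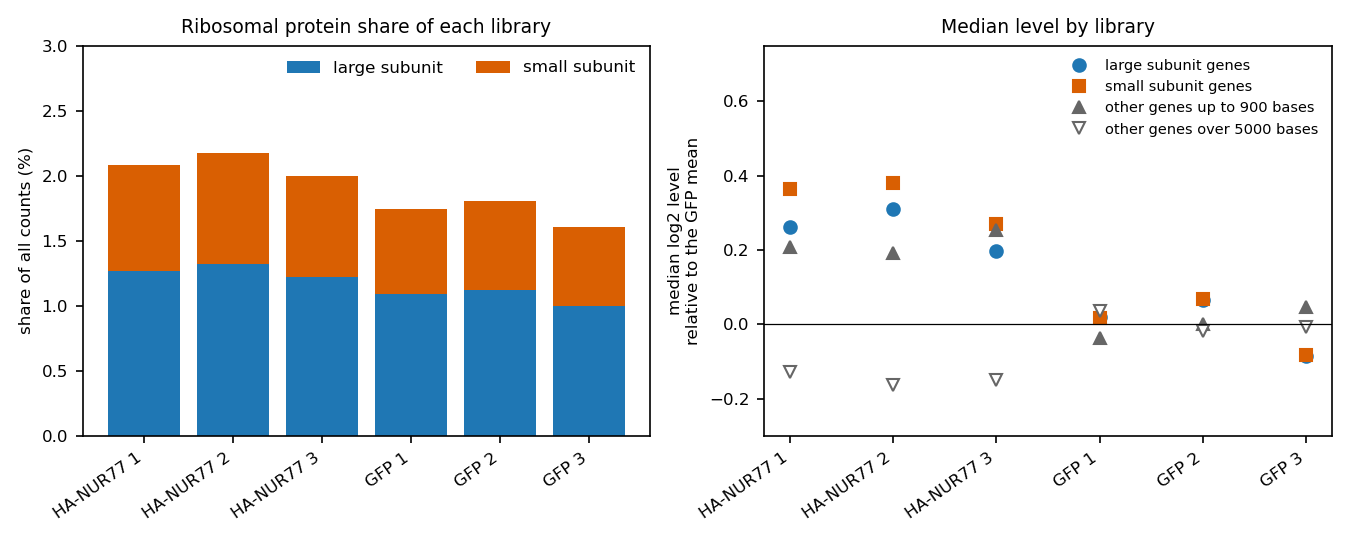
Left, the share of all counts (%) held by large- and small-subunit ribosomal protein genes in each of the 6 libraries. Right, the median log2 level relative to the GFP mean, by library. It is shown for large- and small-subunit genes and for other genes of up to 900 and over 5000 bases. For ribosomal protein genes, all 3 HA-NUR77 libraries stand above all 3 GFP libraries, with total shares of 1.99% to 2.17% against 1.60% to 1.80%. The other genes over 5000 bases stand lower in HA-NUR77, at −0.13, −0.16 and −0.15 against 0.04, −0.02 and −0.01 in GFP.

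Gene by gene, 43 of the 77 tested ribosomal protein genes were higher in HA-NUR77 and 0 were lower at an adjusted p under 0.05 (edgeR quasi-likelihood test, Benjamini-Hochberg adjustment over all 12509 genes). Of all genes tested, 12.4% were called higher and 13.2% lower. The other 34 did not pass, and no ribosomal protein gene was lower even at an unadjusted p under 0.05 in this test. By subunit, 23 of 46 large-subunit and 20 of 31 small-subunit genes rose. The median log2 fold change was 0.28, or 1.21-fold, against 0.01 over all genes, with 0.25 for the large and 0.33 for the small subunit. The difference between the subunits was not tested. In 65 of the 77 genes every HA-NUR77 library was above every GFP library, while 23.0% of all genes had that pattern, and the opposite pattern was seen in 0 of 77 against 22.5% of all genes.

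The rises were small for most genes, and the count of calls depended on single libraries. The fitted SE of a log2 fold change ran from 0.06 to 0.20 with a median of 0.08, and 4 genes changed by 0.5 or more. Without HA-NUR77 replicate 1 the count of higher genes was 22, and without GFP replicate 1 it was 25. It was 31 to 37 without any other library. Of the 43, 21 were called in all 6 fits that left out 1 library and 6 in none. Between same-numbered libraries, the median log2 difference was 0.27, 0.30 and 0.29 for numbers 1, 2 and 3. Over all genes tested it was 0.01, 0.00 and 0.00. Of the 77 genes, 72 were higher in all 3 pairs, and the share of all genes with that pattern was not counted. Treating the replicate number as a block raised the count to 64 higher and 0 lower, where 23.5% of all genes were called higher. DESeq2 called 51 higher, against 12.9% of all genes.

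**Figure D2:**
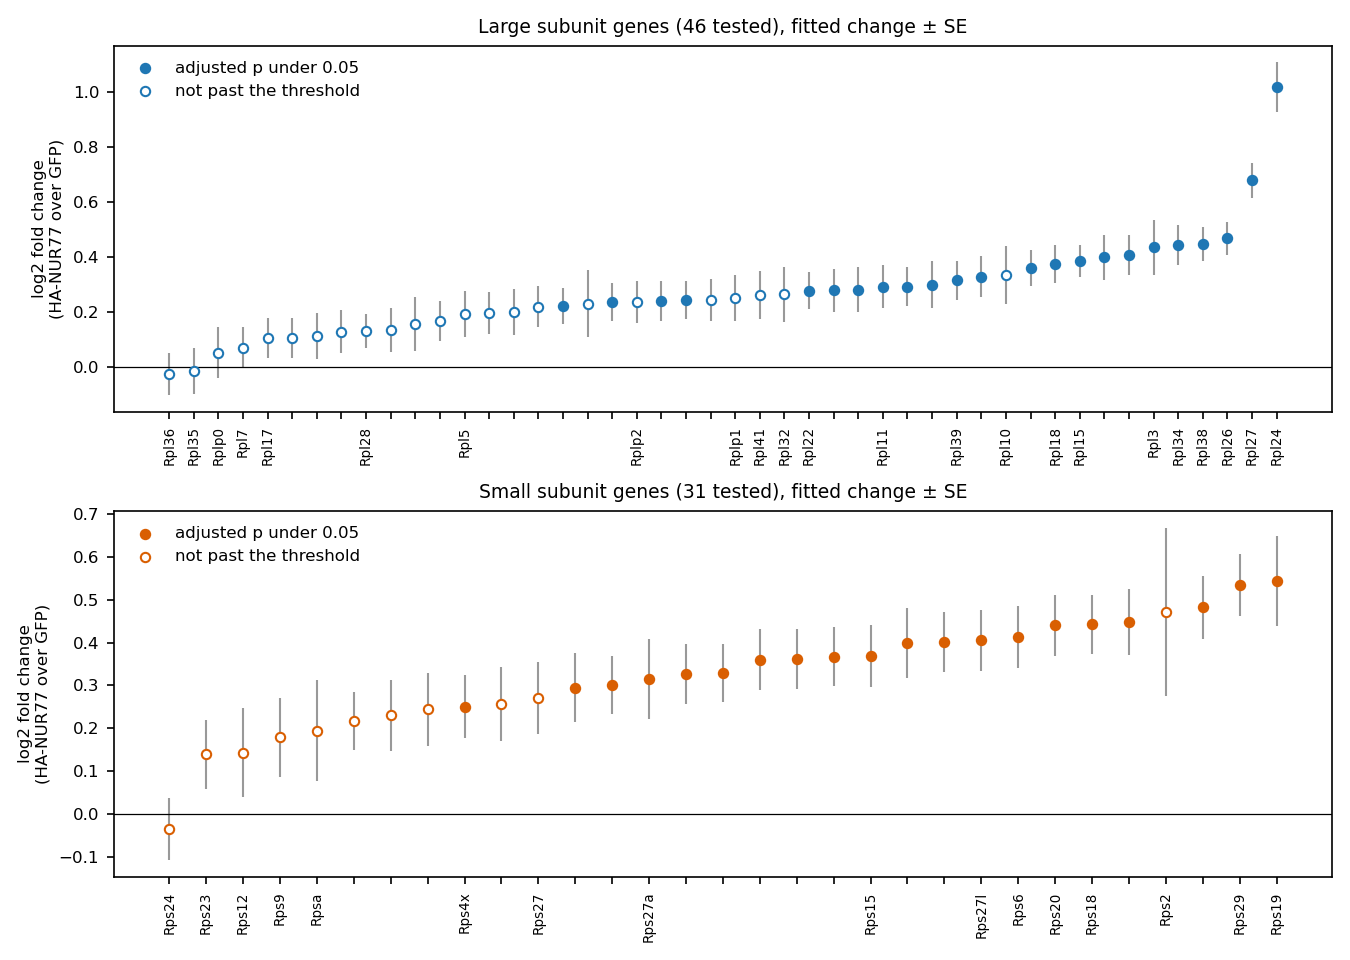
Fitted log2 fold change of HA-NUR77 over GFP for the 46 large-subunit (top) and 31 small-subunit (bottom) genes tested, ranked, with bars of 1 SE, filled points for genes past the threshold and labels for genes described in the text. Most points lie between 0.2 and 0.5, with Rpl24 and Rpl27 alone above 0.6, and Rpl35, Rpl36 and Rps24 at or just below 0.

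Among large-subunit genes, Rpl24 rose the most. Its product sits at the face of the large subunit that meets the small one. Rpl24 (ENSMUSG00000098274, GRCm38 chr16:55966275-55971435, plus strand) was at 26.4, 26.9 and 27.5 CPM with HA-NUR77 and at 14.6, 12.7 and 12.4 CPM with GFP, in order of replicate number as in all sentences that follow. The groups were far apart and the spread within each was small. The change was 2.03-fold, a log2 of 1.02 (SE 0.09, adjusted p = 0.000427), and Rpl24 was the only ribosomal protein gene tested that reached 2-fold. Of the 7 other genes tested within 100 kb of Rpl24, none passed the threshold, and their log2 fold changes ran from −0.29 to −0.03. The counted reads of Rpl24 are few for a ribosomal protein gene. Of the 50-base stretches of its principal transcript, 81.7% also occur among 10 other annotated genes, so its counted level is uncertain.

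Rpl27, a large-subunit protein needed for processing of ribosomal RNA, was the next. Rpl27 (ENSMUSG00000063316, chr11:101442298-101445529, plus strand) was at 141, 135 and 136 CPM in HA-NUR77 and at 82.1, 85.8 and 89.2 CPM in GFP. The rise of 1.60-fold (adjusted p = 0.000537) far exceeded the spread between replicates. Of 6 other genes tested within 100 kb, 1 passed: Ifi35, an interferon-induced gene named here after its values were seen, at a log2 of 1.32 (adjusted p = 0.0054).

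Rpl26, Rpl38 and Rpl34 followed at 1.36- to 1.39-fold. RPL26 is known to bind the mRNA of p53, and RPL38 is known for its part in the translation of Hox mRNAs. Rpl26 was at 111, 112 and 111 CPM in HA-NUR77 and 79.6, 83.3 and 78.4 CPM in GFP (log2 0.47, adjusted p = 0.00215). Rpl38 was at 106, 104 and 100 CPM against 75.5, 77.4 and 74.3 CPM (log2 0.45, adjusted p = 0.00262). Rpl34 was at 202, 212 and 187 CPM against 150, 151 and 141 CPM (log2 0.44, adjusted p = 0.00571). In each of the 3 genes, the lowest HA-NUR77 library stood above the highest GFP library.

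In the small subunit, Rps19 and Rps29 rose the most, by 1.46-fold and 1.45-fold. Mutations in the human genes for both proteins are known from Diamond-Blackfan anaemia, a failure of red cell production. Rps19 was at 150, 160 and 127 CPM in HA-NUR77 and 108, 99.8 and 91.3 CPM in GFP (log2 0.54, SE 0.11, adjusted p = 0.0106). Rps29 was at 168, 188 and 174 CPM against 121, 128 and 116 CPM (log2 0.54, adjusted p = 0.00281). The groups did not overlap in either gene, and Rps19 was the more variable of them.

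Rps2 had a log2 fold change of similar size and did not pass. Its counted level was low, at 6.15, 4.93 and 3.88 CPM in HA-NUR77 and 3.56, 3.43 and 3.86 CPM in GFP, and HA-NUR77 replicate 3 nearly met the highest GFP library (log2 0.47, SE 0.20, adjusted p = 0.113, or 0.0444 with the replicate block). Rps2 shares 50-base stretches with 71 other annotated genes.

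A few genes had fold changes near 0. Rpl35 was at 167, 177 and 158 CPM in HA-NUR77 and 164, 186 and 158 CPM in GFP (log2 −0.01, adjusted p = 0.921). Rpl36 was at 78.6, 78.5 and 75.9 CPM against 81.1, 84.2 and 71.6 CPM (log2 −0.02, adjusted p = 0.84). Rps24 was at 238, 249 and 250 CPM against 250, 269 and 238 CPM (log2 −0.04, adjusted p = 0.738). The groups overlapped in all 3, and these were the only tested members with a fitted log2 below 0. The signs of Rpl35, Rpl36 and Rps24 turn when single libraries are left out.

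Rplp0, the scaffold of the stalk that recruits elongation factors, was among the lowest changes of the large subunit. It was at 628, 687 and 585 CPM in HA-NUR77 and 628, 641 and 562 CPM in GFP (log2 0.05, adjusted p = 0.696). Its stalk partners Rplp1 and Rplp2 had log2 fold changes of 0.25 and 0.24 and missed the threshold (adjusted p = 0.0609 and 0.0574, or 0.00363 and 0.00261 with the block). Rpl7, at 0.07 (adjusted p = 0.501), and Rpl17, at 0.11 (adjusted p = 0.304), also had values close to 0. The lowest changes of the small subunit after Rps24 were those of Rps23 at 0.14 (adjusted p = 0.23), Rps12 at 0.14 (0.332, or 0.0441 with the block), Rps9 at 0.18 (0.185, or 0.0181 with the block) and Rpsa at 0.19 (0.252, or 0.0123 with the block). Rpsa doubles as a laminin receptor, and Rps23 encodes a protein of the decoding centre.

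**Figure D3:**
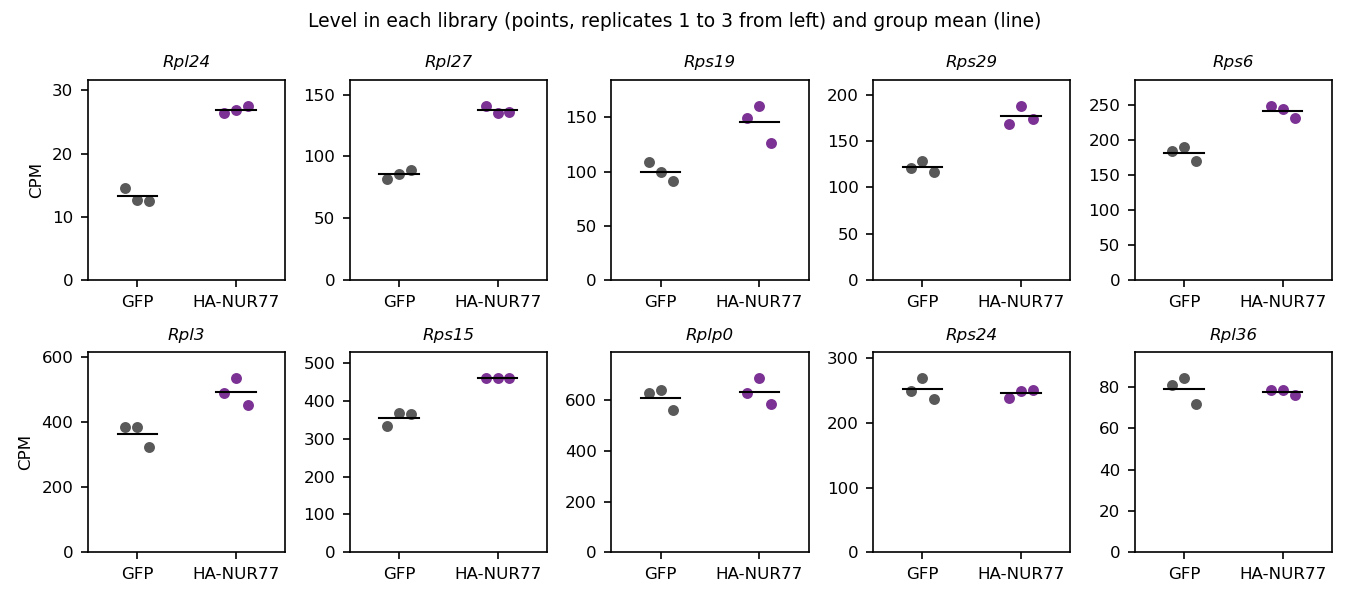
CPM of selected genes in each library (points, replicates 1 to 3 from the left) with the group mean as a line and axes starting at 0. Rpl24 and Rpl27 show the widest separation of the groups, while Rplp0, Rpl36 and Rps24 overlap.

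Several members have known roles beyond the ribosome. Rpl5 and Rpl11 encode proteins that bind the p53 ligase MDM2 when ribosome assembly is disturbed. Rpl5 had a log2 fold change of 0.19 and missed the threshold without the block (adjusted p = 0.122, or 0.0114 with the block). Rpl11 rose by 0.29 (adjusted p = 0.0292, or 0.000905 with the block). However, Rpl11 was called in 1 of the 6 fits without 1 library (adjusted p up to 0.0816). With principal-transcript offsets Rpl11 had 0.12 and Rpl5 0.21, and neither passed (adjusted p = 0.336 and 0.141). Rps6, whose product is the classic phosphorylation target of the S6 kinases, was at 248, 244 and 231 CPM in HA-NUR77 and 183, 190 and 169 CPM in GFP (log2 0.41, adjusted p = 0.00741). Its groups did not overlap. Rps27a, which encodes a fusion of ubiquitin with a ribosomal protein, rose by a log2 of 0.32 (adjusted p = 0.043). It was called in 1 of the 6 fits without 1 library (adjusted p up to 0.126).

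Paralogs of ribosomal protein genes with tissue-restricted or variant forms were examined beside their relatives. Rpl3l, which replaces Rpl3 in mature skeletal and heart muscle, had 5, 11 and 6 reads in HA-NUR77 and 2, 1 and 0 in GFP. The 22 reads against 3 give a depth-scaled ratio of 6.08 with an exact 95% interval of 1.83 to 31.7, which covers counting error only. Rpl3 itself was at 490, 535 and 455 CPM against 384, 384 and 325 CPM (log2 0.44, adjusted p = 0.0183), so Rpl3l was a trace beside it in both groups. Leaving out 1 library could raise the adjusted p of Rpl3 to 0.0649.

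Rpl39l, known from the testis, had 0 reads in HA-NUR77 and 1 in GFP, and its relative Rpl39 rose by a log2 of 0.32 (adjusted p = 0.0174). Rpl39 was called in 4 of the 6 fits without 1 library. Rps27l, known as a p53 target, was at 71.9, 68.9 and 65.8 CPM in HA-NUR77 and 52.4, 54.8 and 48.9 CPM in GFP, with no overlap (log2 0.41, adjusted p = 0.00765). Rps27 had a log2 of 0.27 and missed the threshold (adjusted p = 0.0504, or 0.00183 with the block). Rps4x rose by 0.25 (adjusted p = 0.043, or 0.00251 with the block). It was called in 0 of the 6 fits without 1 library (adjusted p = 0.071 to 0.127). Rpl10 had 0.34 (adjusted p = 0.0511, or 0.000337 with the block).

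Ribosomal protein genes with symbols outside the rule were also examined. Of 6 tested, 5 rose, against 12.4% of all genes: Rpl22l1 by a log2 of 0.68, Rps27rt by 0.61, Rpl36al by 0.47, Rps3a1 by 0.35 and Rpl7l1 by 0.21. Rpl22l1, a paralog of Rpl22, was at 51.9, 58.6 and 49.8 CPM in HA-NUR77 and 33.5, 38.0 and 29.0 CPM in GFP (adjusted p = 0.00598), while Rpl22 rose by 0.28 (adjusted p = 0.021). Rpl22 was called in 2 of the 6 fits without 1 library (adjusted p up to 0.0683). Fau, whose product is a ubiquitin-like protein fused to a small-subunit protein, had 0.21 (adjusted p = 0.0542, or 0.00573 with the block). With length and GC offsets 3 of the 6 were called higher, and with principal-transcript offsets 2, Rpl22l1 and Rps27rt.

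The proteins are equimolar in a ribosome, but counted transcript levels differed widely between genes. Per kilobase of the principal transcript, the middle 50% of members lay between 186 and 354 CPM per kb in GFP, with a median of 277. The highest large-subunit levels were those of Rpl41 at 847, Rplp1 at 697 and Rpl32 at 674 CPM per kb, and the highest small-subunit levels those of Rps15 at 711, Rps12 at 598 and Rps9 at 595 CPM per kb. Rpl41 encodes the smallest protein of the ribosome, and Rps15 one of the small-subunit head. Of these 6 genes, Rps15 passed the test of a difference (log2 0.37, adjusted p = 0.0112). With the replicate block the other 5 passed too, with adjusted p = 0.00423 for Rpl41, 0.00363 for Rplp1, 0.00233 for Rpl32, 0.0441 for Rps12 and 0.0181 for Rps9. The order of levels was nearly the same in both groups, with a Spearman rho of 0.99 between the group means over 77 genes measured in the same libraries.

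Counted levels of some genes are uncertain because ribosomal protein genes have many processed copies in the genome. In 50 members, at least 50% of the 50-base stretches of the transcript also occur in another annotated gene, and 3 members share none. Rps2, Rpl21, Rpl29, Rpl24 and Rpl7a were at 3.62, 6.76, 13.2, 13.2 and 29.9 CPM in GFP, whereas every other tested member lay between 52.0 and 762 CPM. These 5 share stretches with 71, 82, 84, 10 and 123 other annotated genes. The 162 ribosomal protein pseudogenes in the tables held 0.022% to 0.024% of counts in HA-NUR77 and 0.016% to 0.019% in GFP.

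Genes with much and with little sharing had similar medians. Of the 50 tested genes with at least 50% of stretches elsewhere, 26 rose, with a median log2 of 0.27, and of the 27 others 17 rose, with a median of 0.29. By pyrimidine run, 15 of 28 tested genes with a run of at least 8 rose and 16 of 29 with a shorter run, and both medians were 0.28. Rpl35, with the longest run of the sequences shown, had a log2 of −0.01, while Rpl24 and Rpl27, with runs of 2 and 5, rose the most. However, Rpl38 and Rpl34, with runs of 10 and 20, rose by 0.45 and 0.44. Over 57 tested genes, run length and log2 fold change had a Spearman rho of −0.12. The gene spans of 30 members overlap another gene of the tables, such as an intronic small nucleolar RNA. The strand setting of the counting is not stated, so reads of exons that overlap a gene on the opposite strand are uncertain.

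Transcript length moved with the change across all genes. The annotated principal transcript had a median of 681 bases in the tested ribosomal protein genes and 2811.5 bases over all tested genes. Among other genes of up to 600 bases the median log2 fold change was 0.26 and 29.9% were called higher (n = 211), and at 600 to 900 bases it was 0.20 with 25.8% higher (n = 516). Above 5000 bases the median was −0.16, with 7.02% higher and 25.4% lower. Ribosomal protein genes of up to 600 bases had a median of 0.29 with 18 of 29 higher, and those of 600 to 900 bases 0.32 with 18 of 26 higher. Up to 900 bases, 65.5% of ribosomal protein genes and 27.0% of other genes were called higher, with medians of 0.32 and 0.21. At 900 to 1200 bases the medians were close, at 0.139 and 0.135, with 3 of 11 ribosomal protein genes and 16.1% of other genes higher. At 1200 to 1500 bases they were 0.169 (5 ribosomal protein genes) and 0.108, and at 1500 to 2000 bases 0.199 (4 ribosomal protein genes) and 0.070. The short-gene shift was seen library by library: relative to the GFP mean, the 727 other genes of up to 900 bases had medians of 0.21, 0.19 and 0.25 in HA-NUR77 and −0.04, 0.00 and 0.05 in GFP.

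**Figure D4:**
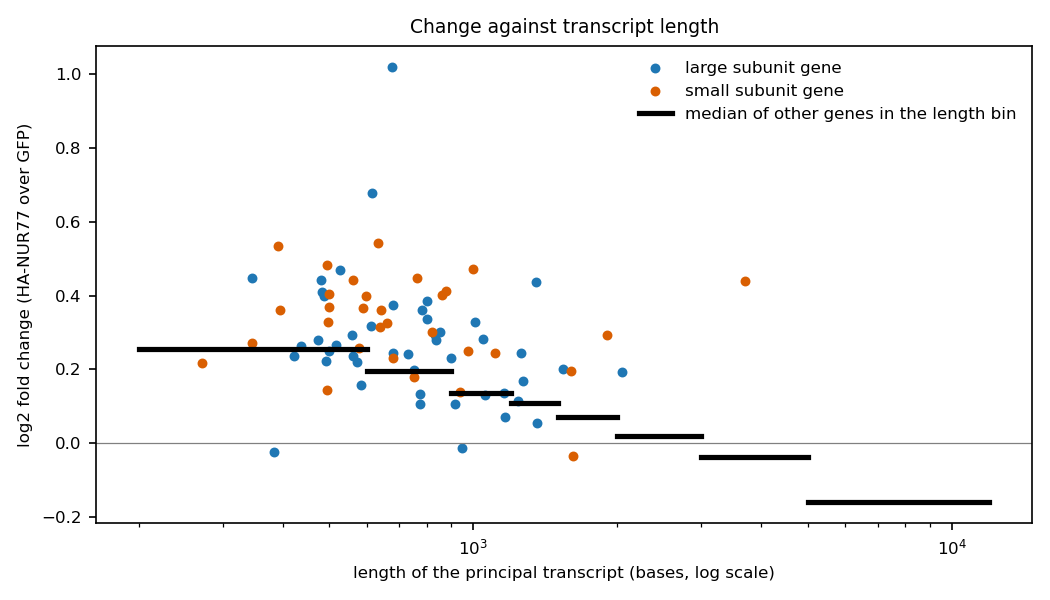
log2 fold change of HA-NUR77 over GFP against the length of the principal transcript (bases, log axis) for ribosomal protein genes (points), with the median of all other genes per length class as horizontal bars, the outer 2 of which are open-ended classes. The bars fall from 0.26 at up to 600 bases to −0.16 above 5000 bases, and most ribosomal protein genes lie at the short end, around or above it.

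When each library was corrected for its trend with principal-transcript length and GC content, an alternative added after the data were seen, the median log2 fold change of the ribosomal protein genes fell from 0.28 to 0.12. The count of higher genes fell from 43 to 7, while 12.5% of all genes were called higher. The 7 were Rpl24 (corrected log2 0.82), Rps20 (0.56), Rpl27 (0.46), Rps29 (0.26), Rps6 (0.25), Rpl26 (0.24) and Rpl15 (0.20). Rps20 is the exception among them: its only principal transcript model has 3706 bases, so its value rose from 0.44 under the correction. With the trend fitted on the other genes only, 7 were again higher. A correction by the union length of annotated exons left 25 higher and a median of 0.17, where 13.0% of all genes were called higher. With that correction and the replicate block together, 45 were higher and 2 lower (25.0% and 22.3% of all genes): Rpl35 at −0.17 (adjusted p = 0.0125) and Rpl36 at −0.24 (adjusted p = 0.00734).

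**Figure D5:**
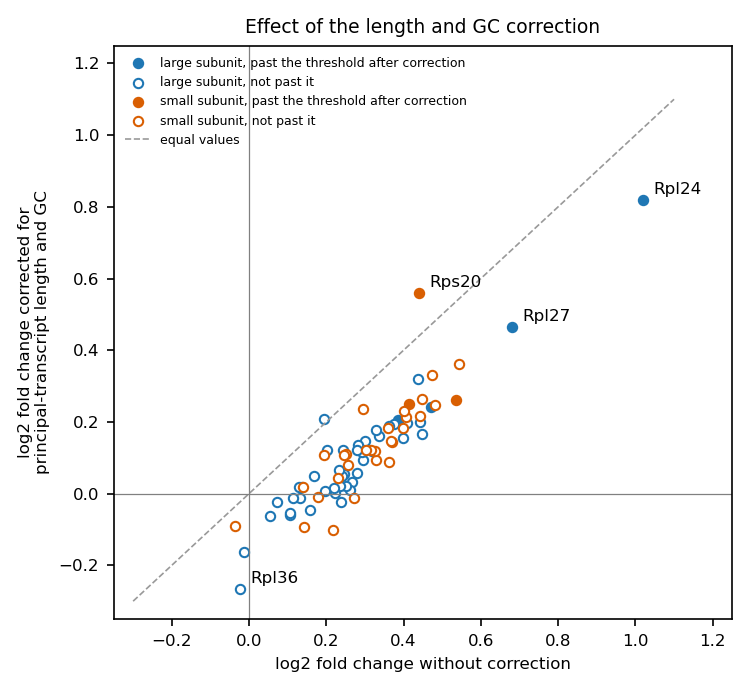
log2 fold change without correction (x axis) and with correction for principal-transcript length and GC (y axis) for the 77 tested ribosomal protein genes, filled where past the threshold after correction. The dashed line marks equal values. Most points fall below it, to around 0.12, and Rpl24 and Rpl27 keep corrected values of 0.82 and 0.46.

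Other genes of the translation machinery were counted against the 12.4% higher and 13.2% lower of all genes. Of 20 tested elongation factors and other TOP mRNAs, 6 rose (30.0%) and 0 fell, with a median log2 of 0.17. They included Eef2, the translocation factor, at 0.33 (adjusted p = 0.0304), Rack1, a scaffold on the small subunit, at 0.32 (adjusted p = 0.0438), and Eif3k at 0.30 (adjusted p = 0.0134). Without 1 library, whichever it was, 0 to 2 of this list were called higher. Over all genes the count also fell in those fits, from 1549 to between 642 and 1489. With principal-transcript offsets 1 of this list was higher, where 12.5% of all genes were called higher. Eef2 was called in none of the 6 fits without 1 library and Rack1 in 1. Of 29 initiation factors, 7 rose (24.1%) and 0 fell (median 0.16), led by Eif3i at 0.57, Eif1 at 0.40 and Eif2b5 at 0.35, each called in all 6 fits without 1 library. With the replicate block, 15 initiation factors were higher and 2 lower, where 23.5% and 24.6% of all genes were called. With principal-transcript offsets, 6 initiation factors were higher and 0 lower, with a median of 0.16.

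Of 98 ribosome biogenesis genes, 16 rose (16.3%, near the share of all genes) and 0 fell, with a median of 0.13. Imp3 rose by 0.44, Emg1 by 0.34 and Utp20 by 0.34, all parts of small-subunit processing. The count was 3 to 13 higher without 1 library, where 642 to 1489 of all genes were higher, against 1549 in the main test. It was 36 higher and 2 lower with the block, where 23.5% and 24.6% of all genes were called. With principal-transcript offsets it was 19 higher and 1 lower, with a median of 0.14. Of 76 mitochondrial ribosomal proteins, 24 rose (31.6%) and 0 fell, with a median of 0.22, and 7 to 21 were higher without 1 library. The block called 40 of them higher and 0 lower. With principal-transcript offsets 18 of them were higher, with a median of 0.15, where 12.5% of all genes were called higher. Under those offsets 7 of 77 cytosolic ribosomal protein genes were higher, with a median of 0.12. The difference between these lists and the cytosolic ribosomal protein genes was not tested.

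Regulators of ribosome production were called about as often as all genes. Of 35 tested, 4 rose (11.4%) and 3 fell (8.57%), with a median of 0.02. Without 1 library, 1 to 3 were higher and 2 to 6 lower, where 642 to 1489 and 850 to 1572 of all genes were called. With the replicate block 7 were higher and 8 lower, where 23.5% and 24.6% of all genes were called. Sesn3, an inhibitor of mTORC1, fell by 1.16 on the log2 scale (adjusted p = 0.00249), Mxd1, a MYC antagonist, fell by 0.87 (adjusted p = 0.0101), and Mxi1, another MYC antagonist, rose by 0.38 (adjusted p = 0.00804). The other changed members, named after their values were seen, were the mTORC1 subunits Rptor at 0.42 and Mlst8 at 0.34, Eif4ebp2 at 0.22 and the MAX partner Mnt at −0.43. Myc, a driver of ribosomal protein transcription, was at 7.60, 10.2 and 6.61 CPM in HA-NUR77 and 11.0, 11.1 and 11.4 CPM in GFP (log2 −0.44, adjusted p = 0.0825, or 0.0141 with the block). Larp1 had 0.13 (adjusted p = 0.22) and Mtor 0.02 (adjusted p = 0.878). Of 11 host genes of small nucleolar RNAs, 2 rose (18.2%) and 0 fell, with a median of −0.02, and 0 or 1 were higher without 1 library. Snhg15 rose by 0.91 (adjusted p = 0.0112). Snhg18 rose by 0.45 (adjusted p = 0.0295) but was called in none of the 6 fits without 1 library (adjusted p = 0.0647 to 0.0814).

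Markers of cell state differed between the same libraries. Their calls are set against the 12.4% higher and 13.2% lower of all genes. The myotube list summed to 30806 to 36817 CPM in HA-NUR77 and 21647 to 30660 CPM in GFP, with 5 of 23 members higher (21.7%) and 2 lower. Without 1 library, 1 to 12 were higher, where 642 to 1489 of all genes were higher. With the replicate block 15 were higher and 5 lower, where 23.5% and 24.6% of all genes were called. The myoblast list summed to 8575 to 9556 and 5966 to 7832 CPM, with 2 of 11 tested members higher and 1 lower. Its median log2 was −0.15 and 5 of the 11 were above 0, so the sum and the median differ in sign. The fibroblast list summed to 5716 to 6685 and 8422 to 10063 CPM, with 3 of 8 tested members higher and 4 lower, and Tcf21 and Thy1 at 0 throughout. The part of these differences in the change of the ribosomal protein genes was not tested.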

How the data were processed

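Poly(A) RNA libraries from 6 dishes were made with a stranded dUTP kit, per the labels' protocols. The authors deposited raw read counts per Ensembl gene, and per the submitters' processing notes the tools were TopHat2 2.1, HTSeq and DESeq2 on mm10. Neither the annotation release nor the strand setting of the counting is stated. GENCODE M21 symbols matched 22888 of 23154 IDs. Rps4l and Rpl6l were left out as pseudogene models, and Rpl10l and Rpl32l were not analysed here. CPM were computed here from library totals with TMM factors. The main test was edgeR 4.0.16 (R 4.3.3) with TMM, filterByExpr (minimum count 10), a robust quasi-likelihood fit and Benjamini-Hochberg adjustment over 12509 genes at 0.05. On simulated data for this comparison over 12509 genes, 75% of genes changed by a log2 of 1 were recovered and 9.46% of calls were false. Only 1 tested ribosomal protein gene reached a log2 of 1, so this recovery does not describe changes near their median of 0.28.

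Alternatives were DESeq2 1.42.0, limma-voom 3.58.1, other scaling, no filter, leaving out each library, a replicate block, and loess offsets (span 0.5) for length and GC. The labels do not say that a replicate number marks a shared day. Deviations of same-numbered libraries correlated at 0.25, 0.55 and 0.47, each over 0.1, so the numbers were taken to pair the libraries, from the data alone. The main test does not use this pairing, since the labels give no batch, and the replicate block is the fit that does. The block added 21 ribosomal protein genes to those called higher in the main test and lost 0. No 2 libraries of a group agreed within sampling noise (lowest chi-square per degree of freedom 11.5). Genes named were, per subunit, the 3 most abundant per kilobase, the 5 highest and 5 lowest fold changes, the paralogs with their relatives, and up to 3 genes of each other list with the smallest adjusted p; some genes the rule named are not reported here. Rps20, Rps6, Rpl15, Rpl5, Rpl11, Rps27a, Rpl22, Rplp2 and the other genes outside this rule were named after their values were seen. The members and lists were chosen with earlier results of these data known. Sequences are from RefSeq (GRCm38.p6).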

Additional observations from a re-analysis of the deposited data

How the results depend on the processing

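The direction of the median ribosomal protein gene held under every alternative run, and its size did not. Its log2 fold change of 0.28 was 0.17 with length and GC offsets, 0.17 with these and the replicate block, 0.12 with principal-transcript offsets and 0.12 when those were fitted without the ribosomal protein genes, and 0.24 to 0.32 without 1 library. The count of 43 higher genes was 25, 45, 7 and 7 under the same 4 corrections and 22 to 37 without 1 library. It was 51 by DESeq2, 43 by limma-voom and 64 with the replicate block. The count of 0 lower was 2 with the block and length and GC offsets together, and 0 without any 1 library. Over all genes, 1549 higher and 1655 lower became 2942 and 3071 with the replicate block and 3124 and 2785 with the block and length and GC offsets. Without 1 library they were 642 to 1489 and 850 to 1572. The cause of these differences was not tested.

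Signs turned for some genes, none of them past the threshold in the main test or where the sign turned. Of the 77 ribosomal protein genes, 6 turned with length and GC offsets and 12 with principal-transcript offsets, and several of these were not near 0 before: Rps27 went from 0.27 to −0.011, Rplp2 from 0.24 to −0.024, Rps28 from 0.22 to −0.10 and Rps9 from 0.18 to −0.010. With length and GC offsets, Rpl17 was at −0.038, Rplp0 at −0.093, Rps23 at −0.0032, Rpl28 at −0.0019, Rpl7a at −0.033 and Rps24 at 0.028, and with the replicate block added Rpl17 was at −0.037, Rplp0 at −0.093, Rps23 at −0.0043 and Rps24 at 0.029. With principal-transcript offsets, Rpl17 was at −0.053, Rpl7 at −0.023, Rplp0 at −0.062, Rps12 at −0.093, Rpl29 at −0.047, Rpl28 at −0.012, Rpl12 at −0.012 and Rpl7a at −0.059. Fitted without ribosomal protein genes, Rpl17 was at −0.046, Rpl7 at −0.019, Rplp0 at −0.059, Rps12 at −0.081 and Rps9 at −0.0030. Upper-quartile factors put Rpl35 at 0.0075. Without 1 library, the log2 fold change ranged from −0.0076 (GFP replicate 3 left out) to 0.11 for Rplp0, from −0.067 to 0.059 (GFP replicate 2) for Rpl35, from −0.095 to 0.026 (GFP replicate 2) for Rpl36, from −0.083 to 0.014 (GFP replicate 2) for Rps24, from −0.014 (HA-NUR77 replicate 2) to 0.060 for Mtor and from −0.082 (GFP replicate 2) to 0.44 for Nr4a1.

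With 3 libraries per group and a median SE of 0.08, the lowest log2 fold change called was 0.22. Counts of genes with near-identical copies are uncertain.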
